A study of Mus musculus with 67 samples.

Results

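The 6 genes followed here through a liver time course all serve hepatic drug metabolism: the cytochrome P450 genes Cyp3a11, Cyp3a13 and Cyp3a25, the reductase gene Por, and the xenobiotic receptor genes Nr1i2 and Nr1i3, better known as PXR and CAR. They were taken as the rows of the deposited expression table that carry these 6 symbols, out of 45808 gene rows, and all 6 passed the filter on low values (a mean of at least 1 FPKM, the authors' expression unit, scaled by exon length and library size). On mouse chromosome 5 of the GRCm38 build lie Cyp3a11 (ENSMUSG00000056035.8, chr5:145854426-145879964, minus strand), Cyp3a13 (ENSMUSG00000029727.7, chr5:137892932-137921619, minus strand), Cyp3a25 (ENSMUSG00000029630.15, chr5:145977194-146009618, minus strand) and Por (ENSMUSG00000005514.14, chr5:135670033-135735326, plus strand). Nr1i2 (ENSMUSG00000022809.4) lies at chr16:38248323-38294824 on the minus strand and Nr1i3 (ENSMUSG00000005677.14) at chr1:171213970-171220701 on the plus strand.

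CYP3A enzymes are membrane-bound monooxygenases of the endoplasmic reticulum that oxidise steroids, bile acids and a large share of drugs. They receive their electrons from NADPH through cytochrome P450 oxidoreductase, the product of Por, which serves all microsomal P450 enzymes. PXR and CAR are nuclear receptors that bind xenobiotics and bile acids or respond to them, pair with the retinoid X receptor, and switch on Cyp3a, Cyp2b and Cyp2c genes along with conjugating enzymes and transporters. In mouse liver Cyp3a11 is the classical PXR target, and the output of the circadian clock to this system is known to run partly through the PAR bZIP factors DBP, TEF and HLF, which act on Nr1i3 and Por among others.

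All mice were C57BL/6, 24 weeks old and fed a high-fat diet for 12 weeks, with food either always present (ad libitum) or offered for part of the day only (time-restricted feeding, with hours not given in the sources used here). Besides wild type (WT), the labels name Bmal1-liverKO (abbreviated Bmal1LKO), which lacks the clock activator gene Bmal1 in liver. They also name Cry1Cry2 double KO (CryDKO), which lacks both cryptochrome clock repressors and is labelled with no tissue restriction, and Rev-erbα/β-liverdoubleKO (ReverbLDKO), which lacks both REV-ERB nuclear receptor repressors in liver. Which Cre line made the liver knockouts, and whether controls were littermates, is not given in the sources used here. WT had 12 ad libitum and 11 restricted libraries at ZT4, ZT8, ZT12, ZT16, ZT20 and ZT24 (zeitgeber time, hours after lights on), in pairs except for 1 restricted library at ZT12. Bmal1LKO had a single library at each WT time, 6 for each feeding. Both CryDKO and ReverbLDKO had 8 for each feeding, taken every 3 h from ZT3 to ZT24, so their times mostly differ from those of WT. Separate animals are not stated in the labels, and every p-value here therefore measures only spread among libraries, which may be technical.

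Upstream stretches were searched for all 6 genes, and the 3 with a match are shown because they hold the letters of elements that clock factors and nuclear receptors are known to bind. Each is 120 bases long, covers positions -250 to -131 from the RefSeq transcript start (GRCm38) and is written 5′ to 3′ on the gene's strand, with matches in capitals. Those of Cyp3a11 (chr5:145879985-145880104, minus strand), Cyp3a25 (chr5:146009749-146009868, minus strand) and Nr1i3 (chr1:171213720-171213839, plus strand) read as follows.
Cyp3a11: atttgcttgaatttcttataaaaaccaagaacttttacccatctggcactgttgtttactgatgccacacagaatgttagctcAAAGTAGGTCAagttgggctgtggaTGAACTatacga
Cyp3a25: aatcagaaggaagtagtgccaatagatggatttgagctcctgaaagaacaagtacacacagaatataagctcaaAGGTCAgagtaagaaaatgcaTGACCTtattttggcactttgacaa
Nr1i3: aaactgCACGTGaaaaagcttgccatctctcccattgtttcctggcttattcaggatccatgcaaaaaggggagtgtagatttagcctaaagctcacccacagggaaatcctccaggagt

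Both strands were searched for the PAR bZIP site TTANGTAA, the nuclear receptor hexamer AGGTCA, its variant AGTTCA, the E-box CACGTG and the RORE, the element of ROR and REV-ERB receptors. The Cyp3a11 stretch held a RORE at -167, which contains the AGGTCA at -162, and the variant on the opposite strand (TGAACT) at -142. The Cyp3a25 stretch held AGGTCA at -176 and, on the opposite strand, TGACCT at -155, and no RORE. The Nr1i3 stretch held the E-box at -244, and the stretches of Cyp3a13, Por and Nr1i2 held none of the 5 motifs. Over all 27025 RefSeq promoters of 300 bases, 0.414% held a RORE, 16% AGGTCA, 14% AGTTCA, 7.24% CACGTG and 2.34% TTANGTAA. Those windows are longer than the stretches shown. A match is a description of letters and not of binding.

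All 67 libraries were liver by their markers: the summed level of 10 hepatocyte genes was 31600 to 88300 FPKM, and hepatocyte genes stood far above the other lists. The 8 small intestine genes, which include Apoa4, a gene that liver also expresses, summed to 187 to 3510 FPKM, and 2 of the 8 passed the filter. Of the rest, Cdx2 and Alpi were each at 0 in every library of 7 of the 8 groups and Sis in 6 groups, while Lct and Muc2 were above 0 in at least 1 library of 6 groups each. In 6 libraries, 10 pancreas genes summed to more than 200 FPKM (up to 3760): both WT ad libitum and both WT restricted libraries of ZT16, CryDKO restricted ZT9 and ReverbLDKO ad libitum ZT9. A pair of libraries stood apart. CryDKO restricted ZT3 had 41900 FPKM of the acute-phase gene Saa1, against at most 3150 in the rest of its group, and WT ad libitum ZT8 replicate 1 had 1.13 FPKM of Hsd3b5 in a group with a median of 176. Values that came out as whole reads summed to 6.37 to 24 M reads per library, and a member had between 264 and 107986 reads in a library. Levels of Arntl, the gene symbol of Bmal1 (2.76 to 7.09 FPKM ad libitum in Bmal1LKO, 0.552 to 11.7 in WT), Cry1 (6.65 to 10.6 in CryDKO, 1.75 to 18.8 in WT) and Nr1d1 (10.6 to 66.4 in ReverbLDKO, 0.165 to 33.3 in WT) overlapped between genotypes. Values summed over all exons do not check these deletions, so the genotypes are those of the labels. WT libraries also differed by base composition: expression rose by a median of 0.303 on the log2 scale per 10 percentage points of GC in WT ad libitum and changed by -0.516 in WT restricted, while the medians of the other groups lay between -0.0113 and 0.122. Por is GC-rich (58.35%, 93rd percentile of tested genes) and Cyp3a11 (40.47%), Cyp3a25 (40.35%) and Cyp3a13 (42.39%) are GC-poor, against a median of 49.4%. Calls on the 6 genes that change when each library's trend with GC and exon length is removed are given with both values, while values of pathway genes are uncorrected.

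The sharpest contrast between genotypes was in the P450 genes. Cyp3a11 was several-fold higher in CryDKO and several-fold lower in ReverbLDKO than in WT under both feedings. Cyp3a25 was higher in ReverbLDKO ad libitum, and also in CryDKO ad libitum. Bmal1LKO had lower levels of most of the 6 genes, and CryDKO had higher Por and Nr1i3. The Nr1i3 call in CryDKO restricted was lost with any 1 of 11 libraries left out. Mutants were compared with WT within each feeding by limma on log2(FPKM + 1), with a level and a 24 h cosine and sine for each group and Benjamini-Hochberg adjustment over 9958 genes. A gene is called at an adjusted p under 0.05. In Bmal1LKO 4 of the 6 genes were called ad libitum, where 24.9% of all genes tested were, and all 4 were lower than in WT (10.1% of all genes were lower). Under restricted feeding 5 were called (39.1% of all genes), all lower (11.4%). These shares moved with scaling. Of 9958 genes, 1447 were lower in Bmal1LKO ad libitum and 2079 restricted with median-of-ratios scaling, and 263 and 568 with libraries scaled to the same sum. The 6 genes were not tested as a set in any mutant. In CryDKO 5 were called ad libitum (55.4%), 4 higher (24.7%) and 1 lower (30.7%), and 4 under restricted feeding (61.5%), 3 higher (33.7%) and 1 lower (27.8%). In ReverbLDKO 3 were called ad libitum (44.8%), 1 higher (20.8%) and 2 lower (24%), and 4 under restricted feeding (52.6%), 1 higher (28.4%) and 3 lower (24.3%). In CryDKO and ReverbLDKO, where 44.8 to 61.5% of all genes were called, 3 to 5 calls among 6 genes are no result about these genes as a set. Of these 25 calls, 12 held in each of 15 other analyses and with any 1 library left out: Por and Nr1i3 in Bmal1LKO ad libitum, Cyp3a13 in Bmal1LKO restricted, Cyp3a11, Cyp3a25 and Nr1i3 in CryDKO ad libitum, Cyp3a11 and Por in CryDKO restricted, Cyp3a11 and Cyp3a25 in ReverbLDKO ad libitum, and Cyp3a11 and Nr1i3 in ReverbLDKO restricted. These are bulk samples, in which fewer cells of a type and less RNA per cell cannot be told apart.

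**Figure D1:**
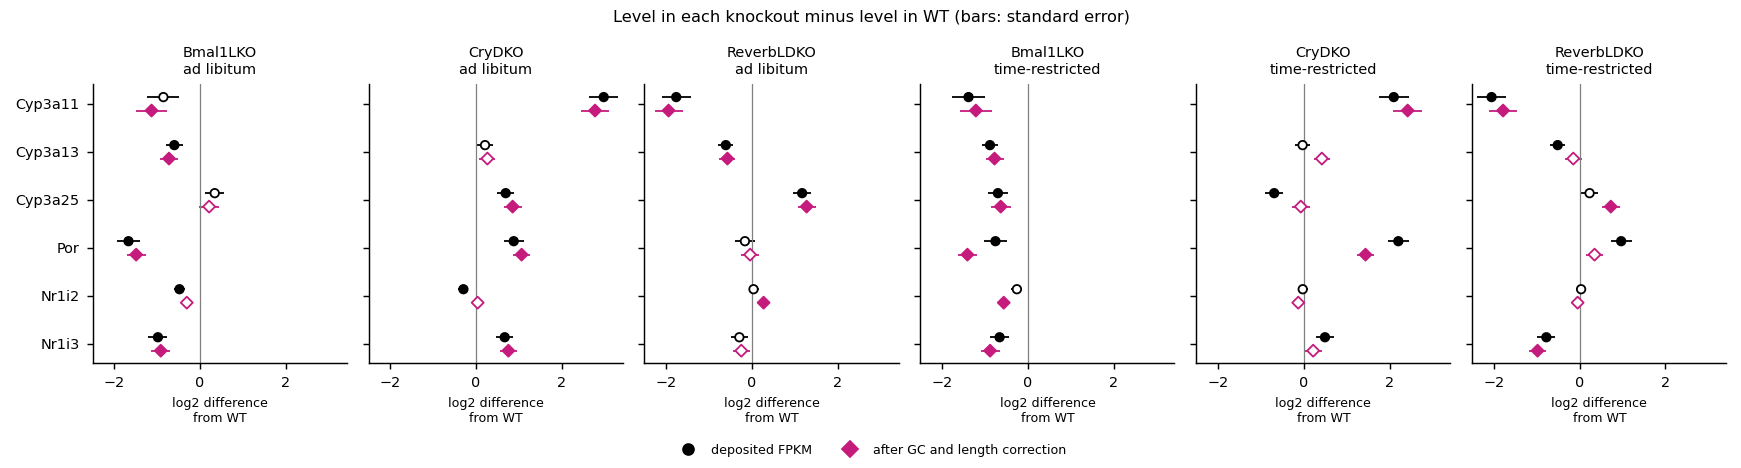
Log2 difference of each mutant from WT in the fitted 24 h level of log2(FPKM + 1), for the 6 genes and both feedings (bars are standard errors, filled symbols are called at an adjusted p under 0.05, open symbols are not). Circles are deposited FPKM and diamonds are values after GC and length correction. Among the circles, Cyp3a11 lies far to the right in CryDKO (2.98 ad libitum) and to the left in ReverbLDKO (-1.76 ad libitum). The circles of Nr1i2 lie between -0.48 and 0.04.

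Cyp3a11, the main PXR-responsive CYP3A gene of mouse liver, ranged in WT from 23.6 through a median of 67.8 to 255 FPKM in the 12 ad libitum libraries. It ranged from 46 through 100 to 205 FPKM in the 11 restricted ones. The WT values were scattered at single times, for example 110 and 255 FPKM in the pair at ZT16 ad libitum. In CryDKO ad libitum the values were 665, 839, 870, 601, 669, 382, 274 and 604 FPKM from ZT3 to ZT24. Every one of them was above the highest WT library, and the mean was 6.94-fold that of WT (613 against 88.4 FPKM). The log2 difference was 2.98 ± 0.34 (SE, limma adjusted p = 1.12e-09). Under restricted feeding the CryDKO values were 111, 409, 350, 862, 868, 413, 670 and 301 FPKM, and 7 of 8 exceeded all WT libraries, the exception being ZT3. The difference was 2.10 ± 0.35 (adjusted p = 1.77e-06).

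In ReverbLDKO, Cyp3a11 ran the other way. Ad libitum values were 6, 4.25, 12.3, 43.7, 48.7, 31.9, 42.3 and 30.1 FPKM from ZT3 to ZT24, with the 3 values up to ZT9 below the whole WT range and the later ones inside it. The log2 difference from WT was -1.76 ± 0.34 (limma adjusted p = 6.93e-05). Restricted values were 24.9, 25.6, 24.1, 20.1, 32.2, 8.19, 28 and 30.4 FPKM. All 8 lay below the lowest WT restricted library, with a mean 4.42-fold lower and a difference of -2.05 ± 0.35 (adjusted p = 4.89e-06). In Bmal1LKO the restricted values of 35.1, 52.4, 48.9, 17.4, 55.7 and 28.4 FPKM from ZT4 to ZT24 overlapped the lower WT values, and the difference was -1.38 ± 0.38 (adjusted p = 0.00303; 0.054 without the WT libraries numbered 2). The ad libitum values were 38.6, 34.1, 29.3, 28.3, 157 and 22.2 FPKM, and the difference of -0.85 ± 0.37 did not pass (adjusted p = 0.087). It passed without the high ZT20 library (-1.31, adjusted p = 0.0127), without WT ad libitum ZT12 replicate 2 (-1.04, adjusted p = 0.0251) or after GC and length correction (-1.13, adjusted p = 0.0194). In the order of fitted levels, from CryDKO at the top through WT and Bmal1LKO to ReverbLDKO, the only neighbours that differed were CryDKO restricted and WT restricted (adjusted p = 1.77e-06).

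**Figure D2:**
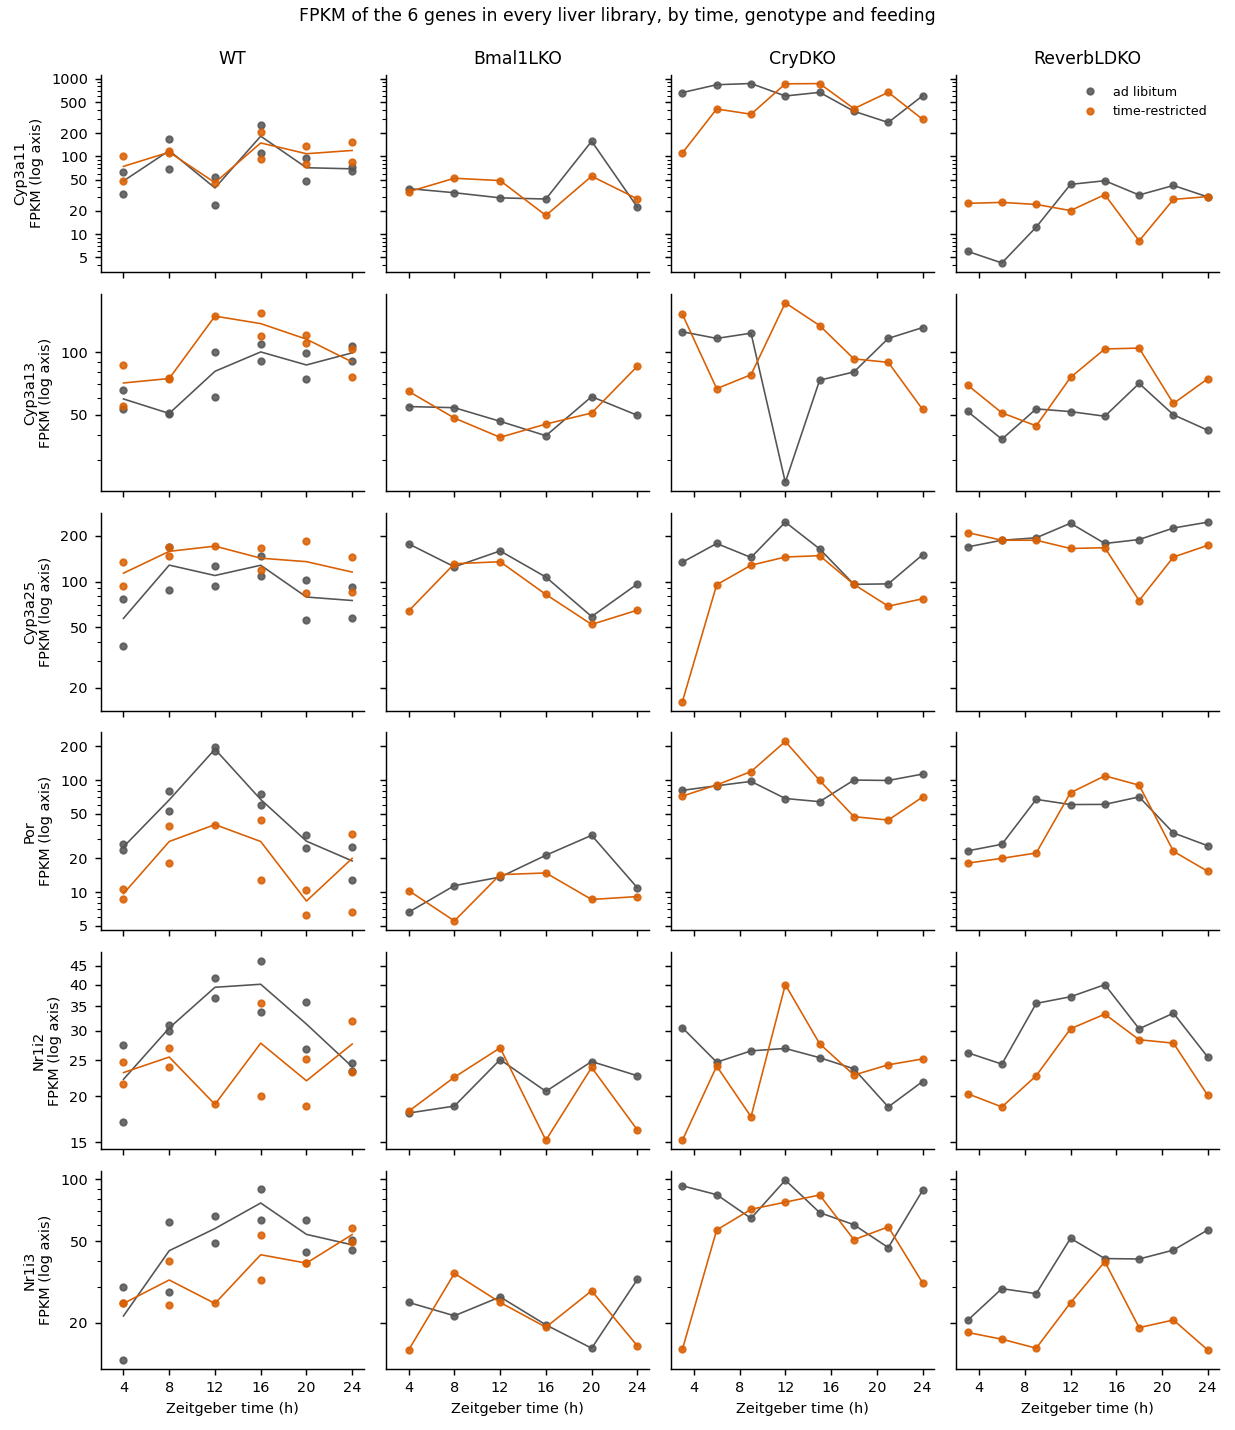
FPKM (log axis) of the 6 genes against zeitgeber time in hours, by genotype and feeding, with a point for each of the 67 libraries. Most CryDKO points of Cyp3a11 run above those of WT, and the ReverbLDKO points lie below the WT points or among the lower ones. Por in WT ad libitum peaks at ZT12 (181 and 196 FPKM).

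Cyp3a25, a further liver CYP3A gene in the same cluster on chromosome 5, had a narrower range. WT libraries ranged from 37.8 through a median of 92.9 to 168 FPKM ad libitum and from 84.3 through 145 to 186 FPKM under restricted feeding. In ReverbLDKO ad libitum its values were 169, 187, 194, 242, 178, 189, 225 and 246 FPKM from ZT3 to ZT24. All 8 were above the highest WT ad libitum library, the lowest by a narrow margin, with a mean of 2.12-fold and a log2 difference of 1.17 ± 0.20 (limma adjusted p = 1.26e-05). In the same 8 livers Cyp3a11 lay below the whole WT range in 3 and inside it in 5. Under restricted feeding ReverbLDKO values of 210, 187, 187, 165, 167, 75, 145 and 173 FPKM overlapped those of WT, and the difference was 0.23 ± 0.21 (adjusted p = 0.351). After GC and length correction that difference was 0.73 ± 0.22 (adjusted p = 0.00583).

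CryDKO ad libitum had 134, 178, 144, 246, 164, 95.8, 96.5 and 150 FPKM of Cyp3a25, a difference from WT of 0.70 ± 0.20 (adjusted p = 0.00357) with overlapping ranges. CryDKO restricted had 16.2, 95.3, 128, 145, 148, 95.7, 68.8 and 77 FPKM and lay lower than WT by 0.69 ± 0.21 on the log2 scale (adjusted p = 0.00395). That fall depended on the analysis: it was -0.42 without ZT3, the library with very high Saa1 (adjusted p = 0.044), and -0.07 after GC and length correction (adjusted p = 0.814). Bmal1LKO did not differ from WT ad libitum (0.35 ± 0.22, adjusted p = 0.254; 0.65 with libraries scaled to the same sum, adjusted p = 0.0312). It was lower under restricted feeding (-0.70 ± 0.23, adjusted p = 0.0119). The restricted call was lost without Bmal1LKO restricted ZT4 (-0.60, adjusted p = 0.0567), without the WT libraries numbered 2 (-0.48, adjusted p = 0.158) and with no time terms (-0.67, adjusted p = 0.0617). No neighbouring pair of the 8 groups differed in the order of Cyp3a25 levels, which ran from ReverbLDKO ad libitum to Bmal1LKO restricted.

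Cyp3a11 and Cyp3a25 are alike in GC content, so a trend of a library with GC acts on both in nearly the same way, and their ratio was compared within libraries. FPKM is per length, and the GENCODE exon lengths are unlike, 5093 bases for Cyp3a11 and 2083 for Cyp3a25. The ratio itself, and whether it exceeds 1, thus depends on the lengths used, while its differences between groups do not. A trend of a library with length was not removed from the ratio. The median ratio of Cyp3a11 to Cyp3a25 FPKM was 0.867 in WT ad libitum and 0.751 in WT restricted, with 4 and 2 libraries above 1. In CryDKO it was 4.04 and 5.08, and all 8 libraries of each feeding were above 1 and above every WT library of that feeding. In ReverbLDKO it was 0.145 and 0.133, and no library reached 1. The highest was 0.273 ad libitum, which overlapped the lowest WT library (0.253), and 0.193 under restricted feeding, below all of WT (0.269). Log2 ratios were compared by two-sided permutation tests that ignore time, adjusted over 10 comparisons, a test chosen after the values had been seen. CryDKO differed from WT by 2.30 ± 0.25 ad libitum and by 2.77 ± 0.27 under restricted feeding, and ReverbLDKO by -3.02 ± 0.50 and -2.37 ± 0.21 (exact permutation, adjusted p = 7.94e-05 in each case). With any 1 library left out these stayed between 2.15 and 2.40, 2.63 and 2.90, -3.23 and -2.72, and -2.52 and -2.30. Bmal1LKO had medians of 0.248 and 0.42 and did not pass (-1.22 ± 0.63, adjusted p = 0.0545, and -0.74 ± 0.36, adjusted p = 0.0843, exact permutation). Feeding did not shift the ratio past the threshold in any genotype (lowest adjusted p = 0.257). Related Cyp3a genes share stretches of sequence between which counting could divide reads. Of the 50-base words in GENCODE transcripts of Cyp3a11, 4.49 to 6.32% occur in Cyp3a16, Cyp3a41a, Cyp3a41b or Cyp3a44 and 0% in Cyp3a25. Of those of Cyp3a25, 24% occur in Cyp3a59, and of its 100-base words 5.3%. Cyp3a25 values are therefore the less certain of the 2.

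**Figure D3:**
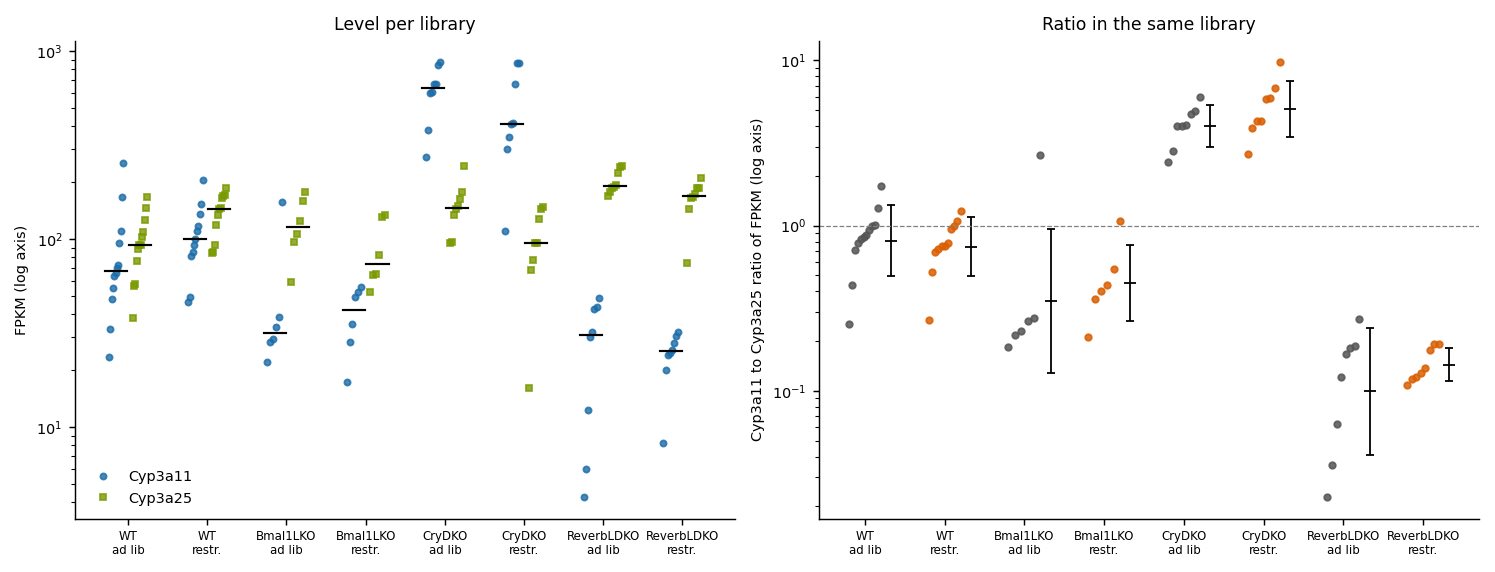
FPKM of Cyp3a11 and Cyp3a25 in the 67 libraries (left) and their ratio (right), both on log axes, by group. Black lines at the left are medians. At the right, grey is ad libitum and orange is restricted, and bars are the mean ± SD of log2 ratios, drawn as ratios. All 16 CryDKO libraries lie above a ratio of 1 and all 16 ReverbLDKO libraries below it.

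Cyp3a13, a CYP3A gene known from both liver and intestine that lies away from the other members on chromosome 5, was lower in Bmal1LKO and ReverbLDKO. WT ranged from 50.5 through a median of 82.9 to 110 FPKM ad libitum and from 55.3 through 104 to 156 FPKM under restricted feeding. Bmal1LKO restricted values were 64.8, 48.1, 38.8, 45, 50.9 and 85.8 FPKM from ZT4 to ZT24, of which 4 lay below all WT libraries (-0.88 ± 0.20, limma adjusted p = 0.000335). Bmal1LKO ad libitum had 54.7, 54, 46.4, 39.5, 61.1 and 49.6 FPKM, with 3 below all of WT (-0.60 ± 0.19, adjusted p = 0.0198). This ad libitum call was lost without ZT16 (-0.53, adjusted p = 0.0771) or without ZT24 (-0.54, adjusted p = 0.0657) of Bmal1LKO, and with libraries scaled to the same sum (-0.29, adjusted p = 0.254).

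ReverbLDKO ad libitum values of Cyp3a13 were 51.8, 38, 53.3, 51.7, 49.1, 70.8, 49.9 and 42 FPKM, with 4 of 8 below all of WT (-0.61 ± 0.18, limma adjusted p = 0.00518; -0.24 with libraries scaled to the same sum, adjusted p = 0.263). The restricted difference of -0.51 ± 0.18 (adjusted p = 0.0161) was lost after GC and length correction (-0.15, adjusted p = 0.551), without ReverbLDKO restricted ZT9 (-0.44, adjusted p = 0.0515) and without ZT21 of that group (-0.40, adjusted p = 0.0693). CryDKO did not differ from WT in either feeding (0.21 ± 0.18, adjusted p = 0.303, and -0.03 ± 0.18, adjusted p = 0.909). Its ad libitum libraries held 126, 117, 124, 23.5, 73.4, 80.5, 117 and 132 FPKM, and without the low ZT12 library the difference was 0.44 (adjusted p = 0.0171). No neighbouring groups differed in the order of Cyp3a13 levels, from WT restricted at the top to ReverbLDKO ad libitum at the bottom.

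Por, the electron donor for all of these enzymes, was lowest in Bmal1LKO and highest in CryDKO. WT ad libitum ranged from 12.8 through a median of 42.7 to 196 FPKM and WT restricted from 6.21 through 12.7 to 43.8 FPKM. Bmal1LKO ad libitum had 6.6, 11.4, 13.6, 21.3, 32.1 and 10.9 FPKM from ZT4 to ZT24, inside or below the low end of WT, with a log2 difference of -1.66 ± 0.26 (limma adjusted p = 3.85e-06). Under restricted feeding it had 10.3, 5.52, 14.3, 14.8, 8.58 and 9.11 FPKM (-0.75 ± 0.27, adjusted p = 0.0208). The restricted difference was -1.41 after GC and length correction (adjusted p = 3.63e-06). Its call was lost without Bmal1LKO ZT8 (-0.56, adjusted p = 0.134), without Bmal1LKO ZT20 (-0.63, adjusted p = 0.0906) and without WT restricted ZT16 replicate 1 (-0.62, adjusted p = 0.0503).

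CryDKO ad libitum held Por at 80.9, 88.9, 97.2, 68.4, 64.1, 100, 99.1 and 113 FPKM, a flat profile inside the WT range, with a difference in level of 0.88 ± 0.24 (limma adjusted p = 0.00181; 0.0548 with no time terms). CryDKO restricted had 71.9, 90.4, 119, 221, 99.1, 47.1, 43.9 and 70.4 FPKM. All 8 lay above every WT restricted library, the lowest barely, with a mean 4.58-fold higher and a difference of 2.21 ± 0.24 (adjusted p = 2.3e-10). This difference shrank to 1.44 ± 0.21 after GC and length correction (adjusted p = 2.04e-07). ReverbLDKO did not differ from WT ad libitum (-0.16 ± 0.24, adjusted p = 0.602). Under restricted feeding it had 18.1, 20, 22.3, 77, 109, 90, 23.1 and 15.3 FPKM, with the 3 values from ZT12 to ZT18 above all of WT. That difference was 0.97 ± 0.24 (adjusted p = 0.00101), or 0.35 after GC and length correction (adjusted p = 0.168) and 0.46 without the WT libraries numbered 2 (adjusted p = 0.16). In the order of Por levels, CryDKO restricted differed from WT ad libitum next below it (adjusted p = 0.00321) and ReverbLDKO restricted from WT restricted next below it (adjusted p = 0.00101), and no other neighbours differed.

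Nr1i2, which encodes PXR, varied least of the 6 genes. All 67 libraries lay between 15.2 and 46.4 FPKM, with group medians from 20.4 in Bmal1LKO restricted to 32 in ReverbLDKO ad libitum. WT ad libitum ranged from 17 through 30.5 to 46.4 FPKM, and Bmal1LKO ad libitum, with 18, 18.8, 25.1, 20.6, 24.8 and 22.7 FPKM, was lower by 0.48 ± 0.13 on the log2 scale (limma adjusted p = 0.00453). After GC and length correction this was -0.31 (adjusted p = 0.0562), and with libraries scaled to the same sum -0.18 (adjusted p = 0.378). Under restricted feeding Bmal1LKO differed by -0.25 ± 0.13 (adjusted p = 0.117), a difference that passed after GC and length correction (-0.56, adjusted p = 0.000322), with median-of-ratios scaling (-0.37, adjusted p = 0.0202) and without Bmal1LKO ZT20 (-0.38, adjusted p = 0.0301). CryDKO ad libitum was lower by 0.29 ± 0.12 (adjusted p = 0.0318). That call turned to 0.04 after GC and length correction (adjusted p = 0.754), and each of 7 libraries ended it when left out (adjusted p = 0.0524 to 0.083): WT ad libitum replicate 2 of ZT4, ZT16 and ZT20, and CryDKO ad libitum ZT6, ZT9, ZT21 and ZT24. CryDKO restricted (-0.02 ± 0.12) and ReverbLDKO in both feedings (0.04 ± 0.12 and 0.03 ± 0.12) did not pass, although ReverbLDKO ad libitum did after GC and length correction (0.28, adjusted p = 0.0341) and with the same sum (0.40, adjusted p = 0.0178). In the uncorrected fit, Nr1i2 in CryDKO and ReverbLDKO differed from WT by at most 0.29 on the log2 scale (-0.29, CryDKO ad libitum). The part of PXR in the Cyp3a11 differences of these mutants was not tested. In the order of levels only WT ad libitum and ReverbLDKO restricted, as neighbours, differed (adjusted p = 0.0365).

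Nr1i3, which encodes CAR, differed more. WT ad libitum ranged from 13.2 through a median of 49.8 to 90.2 FPKM and WT restricted from 24.4 through 38.9 to 58.1 FPKM. Bmal1LKO ad libitum had 25.1, 21.6, 26.7, 19.5, 15 and 32.5 FPKM, at the low end of WT (-0.98 ± 0.22, limma adjusted p = 0.000852). Restricted Bmal1LKO had 14.7, 34.8, 25.1, 19, 28.6 and 15.4 FPKM (-0.66 ± 0.23, adjusted p = 0.0177), and this call was lost without ZT4 (-0.54, adjusted p = 0.0884), ZT12 (-0.61, adjusted p = 0.052), ZT16 (-0.53, adjusted p = 0.0922) or ZT24 (-0.61, adjusted p = 0.0545) of that group. The falls of Por, Cyp3a13 and Nr1i3 in Bmal1LKO came in libraries whose 10 hepatocyte markers also summed to less, 31600 to 46000 FPKM in all 12 against 46900 to 71700 in all 23 WT libraries. Gene by gene these markers went both ways: of the 10, 2 were higher and 2 lower in Bmal1LKO ad libitum (median log2 difference -0.23) and 2 higher and 1 lower under restricted feeding (0.03). The part of this in the falls was not tested.

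CryDKO ad libitum had 93.1, 84.3, 64.6, 99.3, 68.9, 60.1, 46.5 and 88.4 FPKM of Nr1i3, the upper part of the WT range and beyond (0.67 ± 0.20, limma adjusted p = 0.0047). CryDKO restricted had 14.8, 56.7, 71.5, 77.5, 84, 50.8, 58.7 and 31.3 FPKM, with 4 of 8 above all of WT and ZT3 below all of it. The difference of 0.50 ± 0.21 (adjusted p = 0.0349) was 0.22 after GC and length correction (adjusted p = 0.376), and each of 11 libraries ended the call when left out (adjusted p = 0.0507 to 0.12): WT restricted ZT4 (both), ZT8 replicate 2, ZT12, ZT16 replicate 2 and ZT20 (both), and CryDKO restricted ZT6, ZT9, ZT21 and ZT24. ReverbLDKO ad libitum, with 20.5, 29.3, 27.7, 51.6, 41.1, 40.9, 45.2 and 56.7 FPKM, did not differ from WT (-0.29 ± 0.20, adjusted p = 0.243). Restricted ReverbLDKO was low, at 17.9, 16.6, 15, 25, 39.7, 18.9, 20.6 and 14.7 FPKM, with 6 of 8 below all of WT (-0.78 ± 0.21, adjusted p = 0.00184; -0.98 after GC and length correction, adjusted p = 0.000136). WT restricted and Bmal1LKO ad libitum were the only neighbours that differed in the order of levels (adjusted p = 0.0294). Tomm40l overlaps Nr1i3 on the opposite strand over 3304 exonic bases, and the strand setting of the counting is not given in the sources used here. Its group medians were 0.911 to 7.04 FPKM, below those of Nr1i3 in every group.

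In the uncorrected fit, WT livers had less Por and Nr1i2 and more Cyp3a25 and Cyp3a13 transcript under time-restricted than under ad libitum feeding. Of these WT differences only that of Por passed after GC and length correction, and it was smaller. In the mutants 1 gene was called, Nr1i3 in ReverbLDKO, which was lower. The test of restricted against ad libitum levels called 4 of 6 genes in WT, 2 higher (28.6% of all genes) and 2 lower (35.5%), where 64.1% of all genes tested were called. It called 0 of 6 in Bmal1LKO (0.0402% of all genes; 0 at an unadjusted p under 0.05, and 0 with limma voom on recovered reads) and 0 of 6 in CryDKO (0.0201%; 2 unadjusted, 0 with voom). In ReverbLDKO it called 1 of 6 (3.34%), a lower one (2.25% of all genes were lower and 1.09% higher).

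In WT, Por fell by 1.38 ± 0.22 on the log2 scale with restricted feeding (limma adjusted p = 4.89e-07). Its restricted mean was lower at 5 of 6 times, as at ZT12, with 40 FPKM in the 1 restricted library against 181 and 196 ad libitum. At ZT24 the pairs crossed, with 33.3 and 6.69 FPKM restricted against 25.1 and 12.8 ad libitum. After GC and length correction the difference was -0.48 ± 0.19 (adjusted p = 0.0363). Cyp3a25 was higher at 6 of 6 times (0.59 ± 0.19, adjusted p = 0.00549), Cyp3a13 at 5 of 6 (0.37 ± 0.16, adjusted p = 0.0417), and Nr1i2 was lower on balance (-0.32 ± 0.11, adjusted p = 0.00912). With GC and length correction none of these 3 passed, at 0.16 (adjusted p = 0.55), -0.0016 (adjusted p = 0.996) and 0.09 (adjusted p = 0.478). The Cyp3a13 call also ended with any of 12 single libraries left out (adjusted p = 0.0509 to 0.104): ad libitum ZT4 replicate 2, ZT8 (both), ZT12 replicate 1, ZT16 replicate 2 and ZT20 (both), and restricted replicate 2 of ZT4, ZT12, ZT16, ZT20 and ZT24. Cyp3a11 (0.43 ± 0.31, adjusted p = 0.23) and Nr1i3 (-0.38 ± 0.19, adjusted p = 0.0709) did not pass, although Nr1i3 did without any 1 of 5 libraries (adjusted p = 0.0156 to 0.0476): ad libitum ZT4 replicate 1 and ZT20 replicate 1, and restricted replicate 1 of ZT8, ZT16 and ZT24.

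In ReverbLDKO, Nr1i3 was lower under restricted feeding at 8 of 8 times (-0.87 ± 0.22, limma adjusted p = 0.0183). The call was lost without ad libitum ZT12 (adjusted p = 0.0596), ad libitum ZT24 (0.0701) or restricted ZT9 (0.0591), and with no time terms (0.0839). Nr1i2 was also lower at 8 of 8 times in ReverbLDKO, by a difference that did not pass (-0.32 ± 0.13, adjusted p = 0.154). In CryDKO, Cyp3a25 was lower under restricted feeding at 8 of 8 times (-0.80 ± 0.22, adjusted p = 0.308; 0.049 without restricted ZT6). In Bmal1LKO the difference farthest from 0 was that of Por (-0.47 ± 0.30, adjusted p = 0.554).

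Whether feeding acted differently between genotypes was tested for each gene by a moderated F test, which called 2 of 6 (47% of all genes tested). Cyp3a25, with a difference above 0 in WT and differences below 0, none of them called, in the mutants, gave F = 8.84 (limma adjusted p = 0.000488). Por, with -1.38 in WT and -0.47 to -0.06 in the mutants, gave F = 6.34 (adjusted p = 0.0037), or 11.9 without WT restricted ZT24 replicate 1. After GC and length correction neither passed (adjusted p = 0.0552 and 0.569). Nr1i3, called with feeding in ReverbLDKO, was not called in this test (F = 2.06, adjusted p = 0.185), so its feeding difference is not shown to differ between genotypes.

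**Figure D4:**
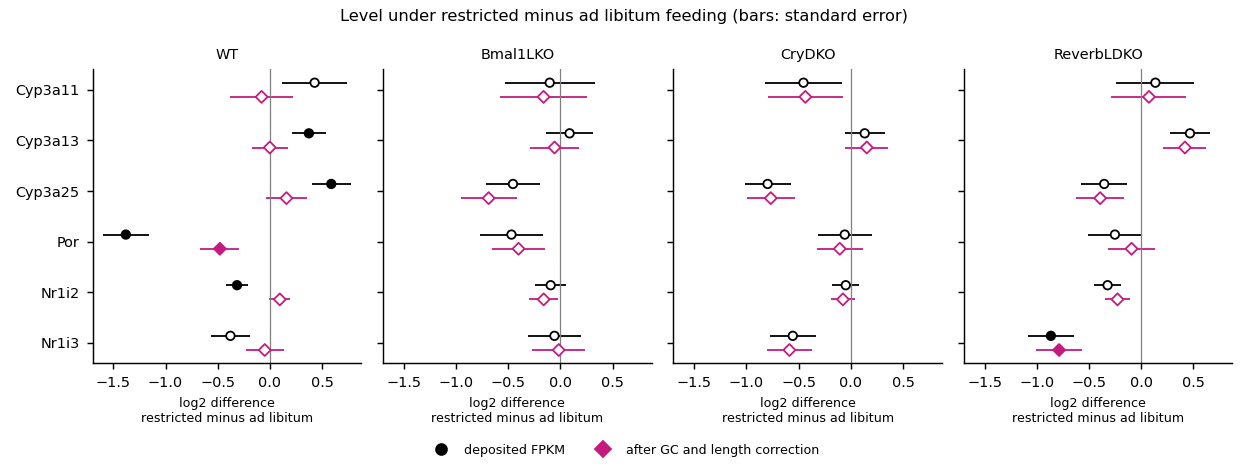
Log2 difference between restricted and ad libitum feeding in the fitted 24 h level of the 6 genes in each genotype (bars are standard errors, filled symbols are called, open symbols are not). Circles are deposited FPKM and diamonds are values after GC and length correction. Among the circles, Por in WT lies farthest to the left (-1.38), and Cyp3a25 is to the right of 0 in WT (0.59) and to the left in the mutants.

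Around the day, Por in WT ad libitum had the lowest adjusted p of the rhythm test over the 6 genes and 8 groups. In WT ad libitum the pairs read 23.7 and 26.9 FPKM at ZT4, 79.9 and 53 at ZT8, 181 and 196 at ZT12, 74.5 and 59.6 at ZT16, 24.5 and 32.4 at ZT20, and 25.1 and 12.8 at ZT24. The level thus climbed to ZT12 and returned by ZT20, with a fitted amplitude of 1.53 ± 0.21 (log2, from mean to peak) and a peak at ZT12.1 ± 0.53 h (limma F test, adjusted p = 6.75e-06). The F test called 3 of 6 genes in this group, where 29.7% of all genes were called. Nr1i2 peaked later and less high (amplitude 0.44 ± 0.10, ZT14.3, adjusted p = 0.00652), and Nr1i3 at ZT16.1 (0.72 ± 0.18, adjusted p = 0.0112; 0.108 without ZT4 replicate 1, the lowest library). Cyp3a25 (adjusted p = 0.0596) passed without ZT12 replicate 2 (0.0462) or ZT24 replicate 1 (0.0349), with median-of-ratios scaling (0.0481) and after GC and length correction (0.0293), and Cyp3a13 (0.0675) without ZT20 replicate 1 (0.0321).

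In WT restricted 2 of 6 genes were called rhythmic (20% of all genes). Por kept its time, with an amplitude of 0.87 ± 0.23 and a peak at ZT11.5 ± 0.93 h (limma adjusted p = 0.019). The call was lost without ZT8 replicate 1 (adjusted p = 0.0514), ZT12 (0.13) or ZT24 replicate 2 (0.0651), and the amplitude was 1.31 without ZT24 replicate 1. Cyp3a13 had an amplitude of 0.52 ± 0.16 with a peak at ZT16.1 (adjusted p = 0.045), and leaving out ZT4 replicate 1, one of the ZT8 libraries, ZT12, ZT16 replicate 2, ZT20 replicate 2 or ZT24 replicate 1 ended the call (adjusted p = 0.054 to 0.17), as did GC and length correction (0.284). With libraries scaled to the same sum the WT calls of Nr1i2 (0.06), Nr1i3 (0.0756) and Cyp3a13 (0.113) were lost. With only the groups compared in the fit these were lost (0.0803, 0.157 and 0.176), as was Por in WT restricted (0.48). The rhythm test called 0 of 6 genes in Bmal1LKO ad libitum (0.0301% of all genes) and 0 in Bmal1LKO restricted (0.492%), with 1 at an unadjusted p under 0.05 in each and 0 with voom. It called 0 in CryDKO ad libitum (0.0402%; 1 unadjusted, 0 with voom) and 0 in ReverbLDKO ad libitum (0.0301%; 2 unadjusted, 0 with voom).

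ReverbLDKO restricted had 1 gene called rhythmic (4% of all genes). This was Por, with an amplitude of 1.41 ± 0.26 and a peak at ZT15.0 ± 0.71 h (limma adjusted p = 0.00193), from 3 high libraries at ZT12, ZT15 and ZT18 (77, 109 and 90 FPKM). In CryDKO restricted 2 genes were called (7.26%), Cyp3a25 (1.01 ± 0.22, ZT13.5, adjusted p = 0.0082) and Nr1i3 (0.87 ± 0.22, ZT13.5, adjusted p = 0.0284). Both calls rested on the low ZT3 library that stood apart, and without it the adjusted p was 0.253 and 0.39. The Nr1i3 call was also lost without ZT12 (0.0722), ZT15 (0.0731) or ZT24 (0.0547). With only the groups compared neither passed (0.233 and 0.199). Por in CryDKO restricted did not pass (adjusted p = 0.085) but did after GC and length correction (0.0171).

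A rhythm called in one group and not in another was compared by a test of the difference. Against WT ad libitum, the rhythm of Por differed in CryDKO, where the profile was flat (F = 13.9, limma adjusted p = 0.00484; 1 of 6 genes called, 1.36% of all genes). The other 5 comparisons of mutants with WT called 0 of 6 genes (1 or 2 at an unadjusted p under 0.05, 0 with voom). Of all genes they called 0.161% (Bmal1LKO) and 0.151% (ReverbLDKO) ad libitum, and 0.131% (Bmal1LKO), 3.5% (CryDKO) and 1.48% (ReverbLDKO) under restricted feeding. Some of these differences passed in other analyses. Por in Bmal1LKO ad libitum did after GC and length correction (F = 12.6, adjusted p = 0.021, against 0.118 without it). Without WT restricted ZT16 replicate 1, Por (0.02) and Nr1i2 (0.0386) passed in ReverbLDKO restricted. Nr1i3 in CryDKO restricted (0.0755) passed without that library (0.0262), WT restricted ZT8 replicate 1 (0.0441), or CryDKO restricted ZT6 (0.0466) or ZT21 (0.0349). Cyp3a13 in CryDKO ad libitum (0.0866) passed without WT ad libitum ZT20 replicate 1 (0.0445). Between feedings, Cyp3a13 differed in CryDKO (F = 9.07, adjusted p = 0.041; 1 of 6 genes, 1.25% of all genes), with its lowest ad libitum library at ZT12 (23.5 FPKM) where restricted feeding had its highest (174 FPKM). That call was lost without any 1 of 7 CryDKO libraries (adjusted p = 0.0617 to 0.267), which were ad libitum ZT6, ZT12, ZT21 and ZT24 and restricted ZT12, ZT15 and ZT24, and F was 16.7 without restricted ZT3. In WT (0% of all genes), Bmal1LKO (0%) and ReverbLDKO (0%) the test between feedings called 0 of 6, with 2, 0 and 1 genes at an unadjusted p under 0.05 and 0 with voom in each. Nr1i2 in WT (0.55) passed without WT restricted ZT16 replicate 1 (0.0274).

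The wider pathway was described by 76 genes in 7 lists, of which 65 passed the filter. Against WT ad libitum, CryDKO had 24 of these 65 higher and 13 lower, with a median log2 difference of 0.24 beside -0.05 for all genes tested (2459 higher and 3055 lower of 9958, or 3836 and 1807 with libraries scaled to the same sum). ReverbLDKO had 21 higher and 12 lower (median 0.13, all genes -0.03; 2071 higher and 2388 lower, or 4631 and 803 with the same sum). Bmal1LKO had 9 higher and 13 lower (median -0.07, all genes 0.01; 1468 higher and 1010 lower, or 3861 and 263 with the same sum). Under restricted feeding the counts were 24 and 17 in CryDKO (3352 and 2770 of all genes, 61.5%), 16 and 19 in ReverbLDKO and 9 and 18 in Bmal1LKO. The split over all genes moved with scaling there too: from 2758 higher and 1133 lower to 2967 and 568 with the same sum in Bmal1LKO (2231 and 2079 with median-of-ratios scaling), and from 2824 and 2416 to 3344 and 1680 with the same sum in ReverbLDKO. In Bmal1LKO ad libitum median-of-ratios scaling gave 1149 higher and 1447 lower.

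Among the PAR bZIP factors and their antagonist Nfil3, CryDKO ad libitum had 3 of 4 higher and 1 lower (24.7% and 30.7% of all genes). Dbp, the clock output activator, was 33 ± 4.56 FPKM (SD, n = 8) in CryDKO and 13 ± 18.8 (n = 12) in WT (log2 2.43 ± 0.31 SE, limma adjusted p = 2.21e-08). The CryDKO level was high at every time (27.1 to 40.3 FPKM), whereas WT ran from 0.542 to 56.1 FPKM. In ReverbLDKO ad libitum all 4 were higher (20.8% of all genes). Nfil3 had 35.6 ± 2.96 FPKM there against 26.3 ± 14.4 in WT (0.67 ± 0.20, limma adjusted p = 0.00629). Of the 12 partners and regulators of PXR and CAR, CryDKO ad libitum had 4 higher and 1 lower (24.7% and 30.7% of all genes). ReverbLDKO ad libitum also had 4 higher and 1 lower (20.8% and 24%). Under restricted feeding CryDKO had 7 higher and 1 lower (33.7% and 27.8%), and ReverbLDKO 6 and 1 (28.4% and 24.3%). The glucocorticoid receptor gene Nr3c1 was higher in CryDKO ad libitum (0.89 ± 0.11, limma adjusted p = 1.17e-08) and ReverbLDKO ad libitum (0.64 ± 0.11, adjusted p = 1.31e-05). Nr1h4 was lower in CryDKO ad libitum (-0.60 ± 0.11, adjusted p = 3.29e-05). The retinoid X receptor gene Rxra was higher in CryDKO restricted (1.43 ± 0.20, adjusted p = 7.63e-08) and ReverbLDKO restricted (1.00 ± 0.20, adjusted p = 7.73e-05).

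Of the 17 tested phase I genes, which like Cyp3a oxidise or hydrolyse substrates, CryDKO ad libitum had 7 higher and 5 lower (24.7% and 30.7% of all genes). The P450 gene Cyp2b9 stood at 85.3 ± 50.5 FPKM there against 18.7 ± 46.7 in WT (4.21 ± 0.72, limma adjusted p = 6.37e-06). The part of CAR in this difference was not tested. ReverbLDKO ad libitum had 6 higher and 2 lower (20.8% and 24% of all genes). Cyp2a4 led, with 94.1 ± 62.5 FPKM against 1.13 ± 3.39 in WT (5.31 ± 0.36, limma adjusted p = 3.61e-16). Under restricted feeding Cyp2a4 was at 0.528 ± 0.53 FPKM in ReverbLDKO (-5.25 ± 0.39 from ad libitum, adjusted p = 6.47e-14). Of the 15 tested phase II genes, which conjugate, CryDKO ad libitum had 7 higher and 3 lower (24.7% and 30.7% of all genes). ReverbLDKO had 4 and 5 ad libitum (20.8% and 24%) and 3 and 10 restricted (28.4% and 24.3%). The glucuronosyltransferase gene Ugt1a9 was higher in CryDKO ad libitum (3.18 ± 0.22, limma adjusted p = 5.59e-16). It was lower in ReverbLDKO restricted (-1.84 ± 0.23, adjusted p = 1.26e-08). Cyp3a11 had these directions there. In ReverbLDKO ad libitum, where Cyp3a11 was lower, the glutathione transferase gene Gstm3 was higher (2.47 ± 0.26, adjusted p = 2.24e-10). Gstm3 was also higher in Bmal1LKO ad libitum (2.56 ± 0.28, adjusted p = 1.57e-09), where 3 phase II genes were higher and 5 lower (14.7% and 10.1%). Cyp2a, Cyp2b, Ugt1a and Gstm genes have near-identical copies or shared exons and are uncertain.

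With feeding, 15 of the 65 pathway genes were higher and 12 lower in WT (median 0.05, all genes -0.03), where 2846 higher and 3533 lower of all 9958 genes made 64.1%. None was called in Bmal1LKO or CryDKO, and in ReverbLDKO 9 were lower and 0 higher (median -0.23, all genes -0.03; 109 higher and 224 lower of all genes, or 52 and 996 with the same sum and 243 and 170 with median-of-ratios scaling). Of the electron transfer and haem supply list in WT, 1 of 10 was higher and 4 were lower, beside 28.6% and 35.5% of all genes. The lower ones included Alas1, the gene of the rate-limiting step of haem synthesis, whose product P450 enzymes need. It was 70.3 ± 46 FPKM restricted and 146 ± 100 ad libitum (-0.98 ± 0.30, limma adjusted p = 0.00411), beside the lower Por in the same livers. Red cell markers were lower with restricted feeding too: 3 of 5 erythroid genes were called lower (median -1.17), and their summed level ran from 131 through a median of 230 to 890 FPKM restricted and from 148 through 518 to 3090 FPKM ad libitum, with none at 0. Their part in these differences was not tested. After GC and length correction, 1986 of all genes were higher and 1706 lower with feeding in WT, and the fall of Por was smaller. For the pathway genes the share of base composition was not tested gene by gene.

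Likeness in pattern was measured as Pearson's r over the 67 libraries after each group's mean was subtracted, among 5163 genes, and is a description without a test, since libraries of a group share times and depth differs between them. Cyp3a11 was most like Hsd17b13 (0.703), Ces1e (0.70) and Gsta4 (0.699), and Gsta4 was also like it across groups (0.909 without the subtraction). Cyp3a25 was most like Cyp3a59 (0.825), Pipox (0.801) and Ugp2 (0.787). Cyp3a13 had no close match (Slc17a1 at 0.572, Atxn7l3b at 0.547 and Lsm14a at 0.542). Por was most like Agpat6 (0.81), Fkbp5 (0.764) and Igfbp4 (0.747). Nr1i2 was most like St3gal5 (0.716) and Gpt (0.711), and Nr1i3 most like Hadh (0.828), Dpys (0.774) and Gcdh (0.773). Without the subtraction the r of these matches was 0.301 (Gcdh) to 0.909 (Gsta4).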

How the data were processed

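A single table of FPKM, deposited by the authors, lists 45808 genes by symbol for the 67 libraries. Per the labels' protocols, liver RNA was isolated with an RNeasy Mini kit and made into stranded TruSeq mRNA libraries. STAR, featureCounts, DESeq2 and GRCm38 are named by the submitters' processing notes, while versions, annotation and strand setting are not given in the sources used here. Library sums of FPKM ran from 386198 to 1097495, so no common sum had been set. The members, gene lists and rules were chosen with earlier results of these data known.

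Values were analysed as log2(FPKM + 1), and fold changes on this scale understate changes of low genes. One limma fit (3.58.1, R 4.3.3) of all 67 libraries covered the 9958 genes whose mean reached 1 FPKM, as described with the results, with Benjamini-Hochberg adjustment over all of them and a threshold of 0.05. It used no replicate block. The fit was tested on simulated data. Descriptions and permutation tests used Python 3.11.15 and scipy 1.17.1, with 100000 resamples where groups were large (two-sided). Whole reads were recovered from the steps of low FPKM values: 84.1 to 88.2% of values up to 20 reads were whole within 0.1 reads in a library, and all 6 genes in all 67 libraries. Limma voom on these reads covered 6061 genes. GC content and exon length came from GENCODE GRCm38 and were known for 9581 of the genes tested. Correction removed a spline of each (4 degrees of freedom) from each library.

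The 6 genes are always named. Per pathway list and contrast, up to 2 called genes averaging 5 FPKM or more, with the largest absolute difference, could be named, as could any gene of a list of 6 or fewer. The genes most like a member, of which 1 is not reported here, were the 3 with the highest correlation among genes of at least 5 FPKM, leaving out Gm and Rik symbols. Alternatives were another pseudocount, no filter, 2 other scalings, GC and length correction, voom, library weights, a replicate block, no time terms, only the groups compared, and libraries left out. No sample was left out of the first fit. No protein sequences were used here.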

Additional observations from a re-analysis of the deposited data

Results flagged for a closer look

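Of 36 sets of libraries examined (a gene in a group of 6 to 8 libraries), 4 held a library far from the rest by Dixon's criterion, which chance meets in about 1 of 20 sets. Cyp3a11 in Bmal1LKO ad libitum reached 157 FPKM at ZT20, where the next highest library had 38.6. Cyp3a13 in ReverbLDKO ad libitum reached 70.8 FPKM at ZT18 (next 53.3). Por in CryDKO restricted reached 221 FPKM at ZT12 (next 119). Nr1i3 in ReverbLDKO restricted reached 39.7 FPKM at ZT15 (next 25). Each of these time points has a single library, so a high library and a high time cannot be told apart.

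Differences between groups under the same contrast were found by tests of the difference itself (limma, moderated F). Feeding differences varied between genotypes for Cyp3a25 (F = 8.84, adjusted p = 0.000488) and Por (F = 6.34, adjusted p = 0.0037). Neither passed after GC and length correction (adjusted p = 0.0552 and 0.569). Por also failed with no time terms (0.117) and without WT replicate 2 (0.163). The rhythm of Cyp3a13 differed between feedings in CryDKO (F = 9.07, adjusted p = 0.041). This call was lost with no filter (0.0661), with a pseudocount of 0.1 FPKM (0.0502) and without CryDKO ad libitum ZT12 (0.267). The rhythm of Por differed between CryDKO and WT ad libitum (F = 13.9, adjusted p = 0.00484).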

How the results depend on the processing

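The first fit made 5 calls with feeding, 2 for feeding differences between genotypes, 25 against WT, 8 of rhythm, 1 for a rhythm difference with feeding and 1 for one from WT. The 25 calls against WT stayed within 1.5 times that number in every analysis run (23 to 26 with any 1 library left out). After GC and length correction there were 2 calls with feeding, 0 between genotypes and 2 for a rhythm difference from WT. The differences of Cyp3a13 (-0.0016) and Nr1i2 (0.0941) with feeding in WT and of Nr1i2 in CryDKO ad libitum (0.0425) then changed sign. The labels' replicate numbers were not taken to pair the WT libraries, since not every pair correlated by more than 0.1: same-numbered libraries of both feedings correlated by 0.398, 0.626, 0.609, 0.544 and -0.287 at ZT4, ZT8, ZT16, ZT20 and ZT24. A replicate block gave 2 rhythm differences from WT (Por in Bmal1LKO ad libitum added, adjusted p = 0.0497) and 19 calls against WT. The 6 that no longer passed were Cyp3a13 in Bmal1LKO ad libitum (adjusted p = 0.055) and ReverbLDKO restricted (0.128), Cyp3a25 in Bmal1LKO (0.0834) and CryDKO restricted (0.0509), Por in ReverbLDKO restricted (0.0521) and Nr1i3 in CryDKO restricted (0.122). The replicate block with GC and length correction gave 2 calls with feeding, 0 between genotypes and 2 rhythm differences from WT, with Nr1i2 at 0.0919 with feeding in WT and 0.0620 in CryDKO ad libitum. Library weights, whose estimation stopped before full convergence, gave 10, 5, 16, 4 and 7 calls for feeding, genotype differences of feeding, rhythm, and rhythm differences with feeding and from WT. Fitting only the groups compared gave 3 of rhythm and 0 for a rhythm difference with feeding, and no value for feeding differences between genotypes. With no time terms there were 3 calls with feeding and 1 between genotypes. Without WT replicate 1 there were 0 rhythm differences with feeding and 3 from WT. Without WT replicate 2 there were 2 calls with feeding, 1 between genotypes and 0 for a rhythm difference with feeding, which was also 0 with a pseudocount of 0.1 FPKM and with no filter. The same sum of FPKM gave 5 of rhythm. Leaving out each library gave 4 to 6 calls with feeding, 2 between genotypes, 6 to 9 of rhythm, 0 to 2 rhythm differences with feeding and 1 to 4 from WT. In analyses chosen after the data were seen, there were 4 rhythm differences from WT without the 6 libraries with pancreas reads, which ended the calls of Cyp3a13 with feeding in WT (adjusted p = 0.0536) and Nr1i3 in CryDKO restricted (0.0717). Without CryDKO restricted ZT3 and WT ad libitum ZT8 replicate 1 there were 3. The cause of these changes was not tested. Scaling to the same sum moved the median of all genes against WT ad libitum from 0.01 to 0.24 (Bmal1LKO), -0.05 to 0.16 (CryDKO) and -0.03 to 0.25 (ReverbLDKO).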

Other observations

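Of 6 other Cyp3a genes, only Cyp3a59 passed the filter. Its median was 2.45 FPKM in WT ad libitum and 16.8 in ReverbLDKO ad libitum (log2 difference 2.20 ± 0.20 SE, limma adjusted p = 7.16e-12), and 4.05 and 8.91 FPKM under restricted feeding (0.80 ± 0.21, adjusted p = 0.00138). In ReverbLDKO it was lower under restricted feeding (-1.01 ± 0.22, adjusted p = 0.00447). Of its 50-base transcript words 24.7% occur in Cyp3a25, so reads of the 2 genes could be divided between them. Cyp3a44 was at most 0.144 FPKM in WT and 0.272 to 0.552 FPKM in CryDKO ad libitum, and it reached 11.9 FPKM in a single CryDKO restricted library, at ZT24, in a group with a median of 0.539. Cyp3a16 had group medians of 0 to 0.0966 FPKM outside CryDKO and 0.515 and 0.363 FPKM in CryDKO. Both genes share words with Cyp3a11, which was also highest in CryDKO, and the part of its reads in these values was not tested.

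Over the 67 libraries with group means removed, Nr1i3 correlated with Nr1i2 (0.651) and Cyp3a25 (0.60), and Por with Nr1i2 (0.57). Cyp3a11 correlated with Cyp3a25 by 0.463, or -0.0282 with group means kept. The values of Cyp3a13 were 0.0862 with Cyp3a11, 0.0259 with Nr1i2 and 0.0685 with Nr1i3. These are descriptions without a test, since libraries share times and differ in depth.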
